A study of Homo sapiens with 18 samples.

Results

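The genes described here are the subunits of the hypoxia-inducible factors (HIFs), the enzymes and the ubiquitin ligase subunit that tie those subunits to oxygen, and a transcriptional repressor that HIF induces. They were chosen by symbol for their roles, with earlier results of these data known: HIF1A, EPAS1, ARNT, EGLN1, EGLN2, EGLN3, VHL, HIF1AN and BHLHE40, which are 9 of the 37096 named genes in the deposited expression table. The study sequenced polyadenylated RNA of HEK293T, an established line derived from human embryonic kidney and expressing the SV40 large T antigen, with a wild-type genotype in every label. Cells were transfected for 12 h or 24 h with the empty vector pLEX or with MethionaseNLS, a methionine-degrading enzyme carrying a nuclear localisation signal, and received DMSO or 5 µM Vps34-IN1, an inhibitor of the class III phosphoinositide 3-kinase Vps34, for 12 h. The 6 groups of 3 libraries were vector in DMSO at 12 h, methionase in DMSO at 12 h, vector in DMSO at 24 h, methionase in DMSO at 24 h, vector in Vps34-IN1 at 24 h and methionase in Vps34-IN1 at 24 h. All cells were transfected, and none of the groups carried an inactive methionase. The labels do not say how long DMSO was applied, which part of the 24 h the drug covered, how many cells took up a plasmid, or that replicates were separate cultures, so the p-values measure the spread between these libraries, which may be technical.

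HIF is a pair of subunits, an oxygen-labile alpha subunit (encoded by HIF1A or EPAS1) and a stable partner (encoded by ARNT). In oxygenated cells the prolyl hydroxylases EGLN1, EGLN2 and EGLN3 mark the alpha subunit, VHL recognises the mark and directs ubiquitination, and the asparaginyl hydroxylase HIF1AN blocks the contact with coactivators. EGLN1, EGLN3 and BHLHE40 are themselves induced by HIF, which makes the hydroxylases part of a feedback loop. Control of the alpha subunits is mainly at the level of protein, which was not measured here.

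Libraries held between 18278586 and 20825232 reads on named genes. A pair of composition measures moved with the groups: the share of reads on the mitochondrial ribosomal RNAs and the share on 57 replication-dependent histone genes. Their group means were 0.240% and 0.0139% in vector at 12 h, 0.548% and 0.0163% in vector at 24 h, 1.49% and 0.0812% in methionase at 24 h, 1.20% and 0.0776% in vector with Vps34-IN1, and 2.18% and 0.169% in methionase with Vps34-IN1. At 12 h with methionase they were 0.355% and 0.0148%. Their part in the results below was not tested. HEK293T markers were present (VIM had at least 9850 normalised reads in every library, GATA3 at least 202 and PAX2 at least 99.1), although LHX1 reached only 14.9. Of the 12 markers of leukocytes, endothelium, hepatocytes and fibroblasts, PTPRC and TTR were not listed and the others had at most 20.3 normalised reads in any library. In bulk RNA a lower level can mean fewer cells with the transcript or less of it per cell, and these cannot be told apart here.

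The letters ACGTG and GCGTG form the core of the hypoxia response element, and CACGTG is an E-box, the kind of site that BHLHE40 and the clock factors bind. They were searched on both strands of the 250 bases before each RefSeq start (GRCh38.p14), for the 8 of the 9 genes that had an entry. A CACGTG match also holds ACGTG on both strands. ACGTG was found before EGLN1, EGLN2 and BHLHE40, GCGTG before EPAS1 and 1 of the 2 starts of HIF1A, and CACGTG before EGLN2 and BHLHE40. None of the motifs was found before ARNT, HIF1AN or EGLN3. Among all 35116 windows of that length, 18.5% held ACGTG, 32.2% GCGTG and 6.34% CACGTG. The matches of the 2 genes that fell at 12 h are shown as 30-base excerpts on the gene's strand, with those before the 2 alpha subunit genes for comparison. Capitals mark the match, and the windows before EGLN1 and BHLHE40 lie within an exon of a longer GENCODE v29 transcript of the same gene.
EGLN1, chr1:231422288-231422317, minus strand, match starting 13 bases before the start: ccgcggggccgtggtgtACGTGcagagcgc
BHLHE40, chr3:4979187-4979216, plus strand, match starting 245 bases before: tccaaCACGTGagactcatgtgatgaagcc
BHLHE40, chr3:4979251-4979280, plus strand, match starting 174 bases before: ggcagtggccagACGTGcctggagtcacag
BHLHE40, chr3:4979276-4979305, plus strand, match starting 149 bases before: cacagggtagaaCACGTagctccaacccac
EPAS1, chr2:46297278-46297307, plus strand, match starting 117 bases before: gggcctgccggcGCGTGcccgcccacacac
HIF1A, chr14:61695297-61695326, plus strand, match starting 204 bases before: tggctgagagcgGCGTGggctggggtgggg
BHLHE40 thus held matches at 3 places and EGLN1 at 1. A match is a description of the letters and not evidence of binding.

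Levels are given below as normalised reads, which are read counts recovered from the deposited log2 values and divided by a size factor per library. Gene positions are the GENCODE v29 spans on GRCh38. Per kilobase of exon in those gene models, the mean over all 18 libraries was highest for VHL, at 867, followed by BHLHE40 at 458, ARNT at 367, HIF1A at 289, EGLN1 at 216, EPAS1 at 132, HIF1AN at 128 and EGLN3 at 47.1. EGLN2, on chr19:40798996-40808433, stood apart at 0.532 normalised reads per kilobase. It had between 0 and 3.8 normalised reads in every library and was the only gene of the 9 that did not pass the filter on low values. Of its exon bases, 66.6% are shared on the same strand with AC008537.1 and RAB4B-EGLN2, and RAB4B-EGLN2 had at most 2.1 normalised reads and RAB4B at most 1.0. Whether this overlap bears on the low EGLN2 value was not tested, and the comparisons below cover the other 8 genes. Of HIF1A, 3.48% of exon bases are shared on the same strand and 2.75% on the opposite strand. Its antisense genes HIF1A-AS1, HIF1A-AS2 and HIF1A-AS3 had at most 6.5 normalised reads in any library.

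**Figure D1:**
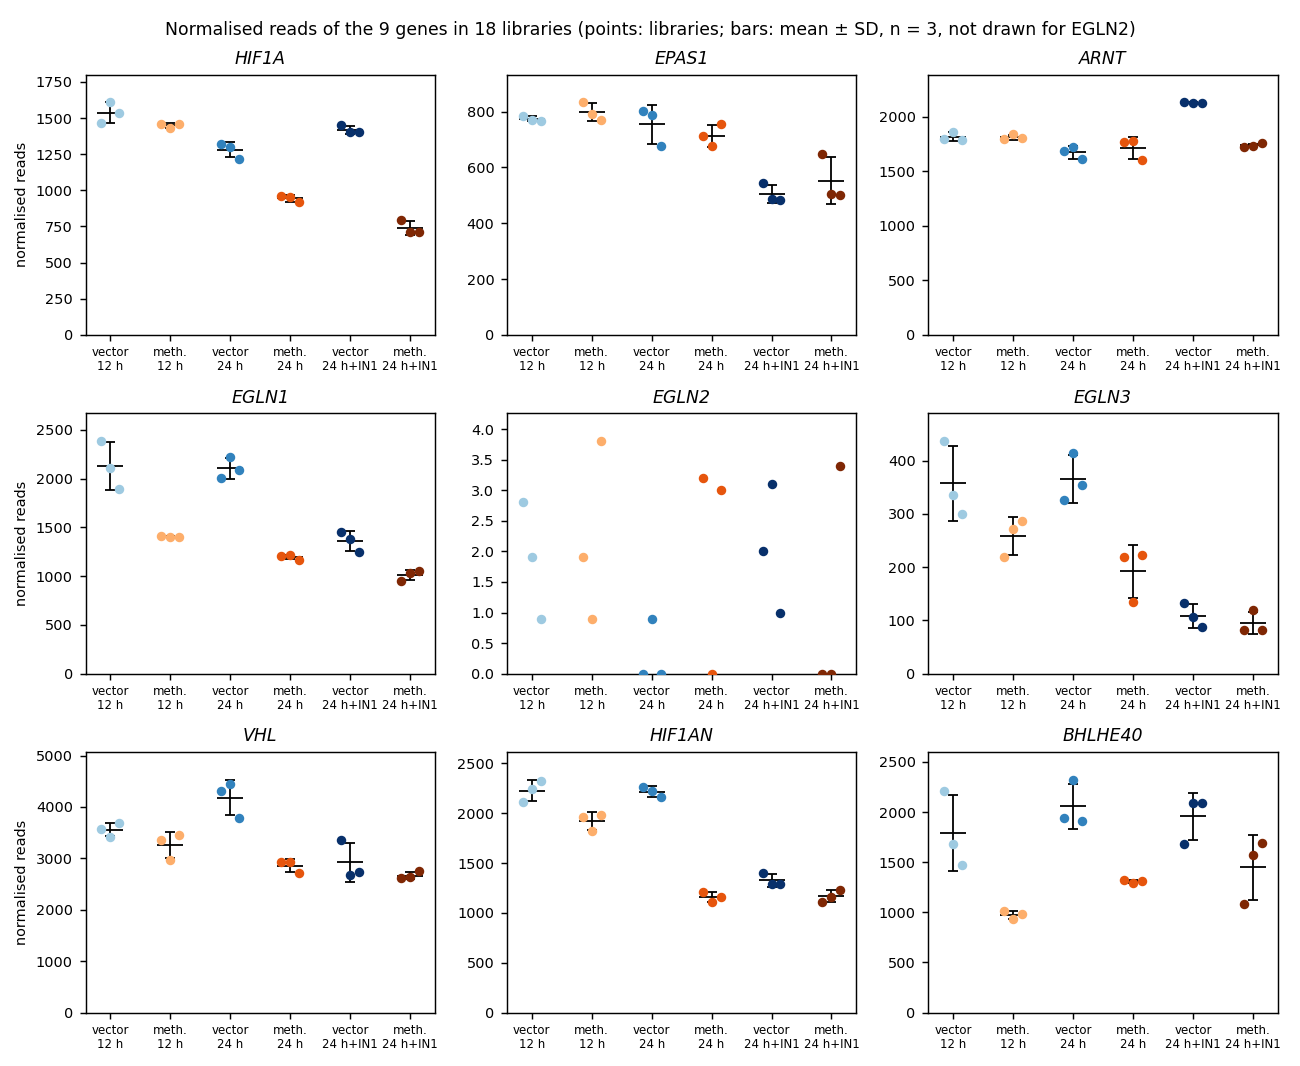
Normalised reads (vertical axes, starting at 0) of the 9 genes in the 6 groups (horizontal axes, with IN1 for Vps34-IN1 and meth. for methionase). Points are libraries and bars the mean ± SD of 3, which are not drawn for EGLN2. HIF1A is lowest with methionase and drug, near 740 on average, ARNT is highest with vector and drug, near 2131, and EGLN2 stays below 4 everywhere.

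Methionase for 12 h lowered 2 of the 8 genes, the prolyl hydroxylase gene EGLN1 and the repressor gene BHLHE40, and none was called higher. Over all 17755 genes tested, limma called 1.49% lower and 0.681% higher at a Benjamini-Hochberg adjusted p below 0.05. Unadjusted p-values below 0.05 numbered 4 lower and 0 higher among the 8, and limma voom on the recovered counts called 2 lower and 0 higher. The 2 genes were among the largest differences of the transcriptome at this time: only 0.0338% of tested genes differed by more than BHLHE40 and 0.124% by more than EGLN1. Both genes remained called when any single library was left out, although the calls over all genes then ranged from 18 (without methionase DMSO 12 h replicate 2) to 238. The median of the 8 genes was -0.16 log2, beside 0.00 for all genes tested.

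At 24 h in DMSO the set lowered by methionase grew to 6 of 8: HIF1A, EGLN1, EGLN3, VHL, HIF1AN and BHLHE40. EPAS1 and ARNT were not called. The background was 21.1% lower and 18.1% higher, so that a call was common at this time. The 8 genes had 0 higher calls by limma, 0 by limma voom and 0 at an unadjusted p below 0.05. Their median was -0.57 log2, beside 0.01 for all genes. In Vps34-IN1 the same contrast lowered 5 of 8, namely HIF1A, ARNT, EGLN1, HIF1AN and BHLHE40, against backgrounds of 22.2% lower and 17.3% higher and with a median of -0.23. Without methionase and Vps34-IN1 replicate 1 this count was 3, because HIF1AN and BHLHE40 were no longer called.

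Vps34-IN1 in vector cells lowered 5 of 8 (EPAS1, EGLN1, EGLN3, VHL and HIF1AN) and raised ARNT, against backgrounds of 19.9% lower and 20.2% higher and with a median of -0.51. In methionase cells it lowered 3 of 8 (HIF1A, EPAS1 and EGLN3), where the backgrounds were 4.98% lower and 2.95% higher, and the median was -0.16. Calls over all genes in the latter comparison numbered 1408, and 860 without methionase DMSO 24 h replicate 3, when EPAS1 was no longer called. The contrast of methionase in DMSO at 24 h and that of Vps34-IN1 in vector cells share the 3 vector DMSO libraries at 24 h as their baseline, so that their values below are given side by side and not as independent results. Between 12 h and 24 h in vector cells only HIF1A was called, as lower, with backgrounds of 6.88% lower and 4.61% higher. Those shares rest on 2039 calls, which became 798 without vector DMSO 24 h replicate 1, 1256 without its replicate 3, 1028 without vector DMSO 12 h replicate 2 and 833 without its replicate 3. In methionase cells the same interval lowered HIF1A, EGLN1, EGLN3 and HIF1AN and raised BHLHE40, with backgrounds of 21.3% lower and 18.4% higher.

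**Figure D2:**
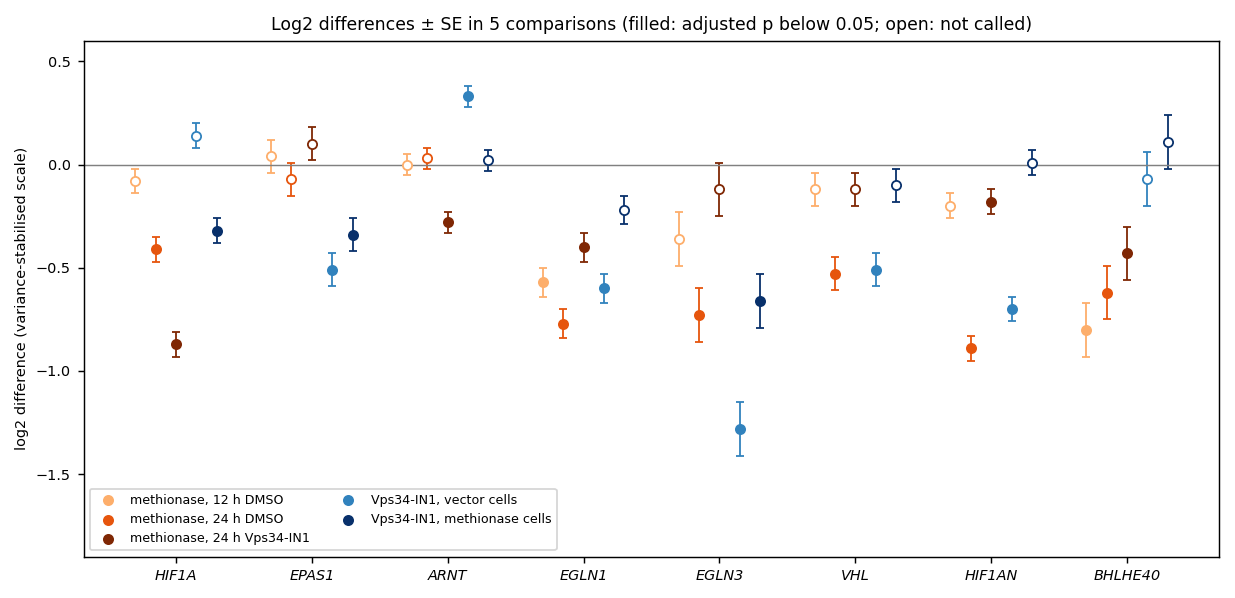
Log2 differences (vertical axis, with bars for the standard error) of the 8 tested genes in 5 comparisons, 3 of methionase against vector and 2 of Vps34-IN1 against DMSO. Filled points were called and open points were not. EGLN3 in vector cells with the drug has the lowest value, -1.28, and ARNT in the same comparison the highest, 0.33.

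HIF1A (chr14:61695513-61748259) encodes the widely expressed alpha subunit. It had 1464, 1608 and 1537 normalised reads in vector at 12 h and 1458, 1429 and 1460 in methionase at 12 h. At 24 h in DMSO it had 1320, 1301 and 1220 in vector and 959, 953 and 919 in methionase. With Vps34-IN1 it had 1451, 1400 and 1407 in vector and 797, 708 and 714 in methionase. The 12 h groups were adjacent and separated by fewer than 5 normalised reads, whereas at 24 h methionase libraries lay well below vector libraries with no overlap. The log2 difference with methionase was -0.08 ± 0.06 (SE) at 12 h (limma adjusted p = 0.506), -0.41 ± 0.06 at 24 h in DMSO (adjusted p = 5.66e-06) and -0.87 ± 0.06 in Vps34-IN1 (adjusted p = 2.03e-10). In the last of these 47.9% of the vector level was lost, and 0.991% of tested genes had a larger difference. Vps34-IN1 went with opposite signs with the empty vector and with methionase, with 0.14 ± 0.06 in vector cells (adjusted p = 0.0562) and -0.32 ± 0.06 in methionase cells (adjusted p = 0.0011). The first of these was called under 5 alternative settings, at 0.11 to 0.19, and the second was not called when only the groups compared were fitted (adjusted p = 0.07386). Over time HIF1A fell by 0.25 ± 0.06 in vector cells (adjusted p = 0.00761) and by 0.58 ± 0.06 in methionase cells (adjusted p = 5.84e-08). The fall in vector cells was not called without vector DMSO 12 h replicate 2, at -0.22 (adjusted p = 0.05318).

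EPAS1 (chr2:46293667-46386703) encodes the second alpha subunit, known for its roles in endothelium and in erythropoietin control. It had 785, 771 and 767 normalised reads in vector and 833, 793 and 769 in methionase at 12 h, and 802, 787 and 676 in vector and 711, 676 and 754 in methionase at 24 h in DMSO. With Vps34-IN1 the values were 544, 486 and 484 in vector and 649, 506 and 500 in methionase. All 6 drug libraries lay below all 12 DMSO libraries, and methionase and vector overlapped in each of the 3 settings. Methionase differences were 0.04 ± 0.08 at 12 h, -0.07 ± 0.08 at 24 h and 0.10 ± 0.08 in the drug, with 95% intervals of -0.13 to 0.20, -0.23 to 0.09 and -0.06 to 0.27. Vps34-IN1 lowered EPAS1 by 33.1% in vector cells, a log2 difference of -0.51 ± 0.08 (limma adjusted p = 1.91e-05). In methionase cells the difference was -0.34 ± 0.08 (adjusted p = 0.01), which was not called without methionase DMSO 24 h replicate 3, at -0.30 (adjusted p = 0.05293), or with only the groups compared in the fit (adjusted p = 0.1088).

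The reads of both alpha subunits can be set against each other within a library. The ratio of HIF1A to EPAS1 normalised reads, which is not corrected for length and is read only across groups, was 1.98 ± 0.111 (SD, n = 3) in vector at 12 h, 1.82 ± 0.0747 in methionase at 12 h and 1.70 ± 0.0903 in vector at 24 h. It was 1.33 ± 0.0976 in methionase at 24 h, 2.82 ± 0.131 in vector with the drug and 1.35 ± 0.108 in methionase with the drug. Vector cells with Vps34-IN1 had the highest ratios, from 2.67 to 2.91, and both methionase groups at 24 h the lowest, with a highest library of 1.43. No test was run on the ratios.

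ARNT (chr1:150809705-150876768) encodes the shared partner subunit, which also pairs with the dioxin receptor. Its normalised reads were 1801, 1863 and 1784 in vector and 1793, 1838 and 1803 in methionase at 12 h, and 1689, 1725 and 1610 in vector and 1769, 1783 and 1601 in methionase at 24 h in DMSO. With Vps34-IN1 they were 2133, 2131 and 2128 in vector and 1728, 1730 and 1757 in methionase. Vector cells with the drug stood above every other library, and the remaining 5 groups lay between 1601 and 1863. Vps34-IN1 raised ARNT by 27.2% in vector cells (0.33 ± 0.05, limma adjusted p = 2.72e-05), while in methionase cells the difference was 0.02 ± 0.05 with an interval of -0.09 to 0.13. Methionase differences were 0.00 ± 0.05 at 12 h and 0.03 ± 0.05 at 24 h in DMSO, with intervals of -0.11 to 0.11 and -0.08 to 0.14, and ARNT was lower by 18.4% in the drug (-0.28 ± 0.05, adjusted p = 0.000211). The related ARNT2 was the only tested gene of a short list that held HIF3A, ARNT2 and P4HTM. It had values of -0.07 ± 0.07, -0.56 ± 0.07 and -0.27 ± 0.07 with methionase at 12 h, at 24 h and in the drug, the latter 2 of them called (adjusted p = 1.03e-06 and 0.00328), and -0.25 ± 0.07 with the drug in vector cells (adjusted p = 0.00525).

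EGLN1 (chr1:231363751-231425044) encodes the prolyl hydroxylase that carries most of the activity toward HIF in oxygenated cells. It had 2383, 2110 and 1896 normalised reads in vector and 1408, 1402 and 1402 in methionase at 12 h. At 24 h in DMSO it had 2007, 2222 and 2084 in vector and 1205, 1213 and 1168 in methionase. With Vps34-IN1 it had 1457, 1382 and 1249 in vector and 951, 1031 and 1056 in methionase. The vector DMSO groups at both times lay above all other libraries, and methionase was below vector without overlap in all 3 settings. EGLN1 was the only gene of the 8 other than BHLHE40 that methionase lowered in each setting: by 34.1% at 12 h (-0.57 ± 0.07, limma adjusted p = 0.000186), by 43.2% at 24 h (-0.77 ± 0.07, adjusted p = 1.15e-08) and by 25.8% in the drug (-0.40 ± 0.07, adjusted p = 9.65e-05). Vps34-IN1 lowered it by 35.2% in vector cells (-0.60 ± 0.07, adjusted p = 4.46e-07). In methionase cells the drug difference was -0.22 ± 0.07 (adjusted p = 0.0513), with all 3 drug libraries below all 3 DMSO libraries. It was called with a stricter filter (adjusted p = 0.04506) and without methionase Vps34-IN1 replicate 3 (-0.25, adjusted p = 0.04109). Between 12 h and 24 h the difference was -0.01 ± 0.07 in vector cells and -0.22 ± 0.07 in methionase cells (adjusted p = 0.0166), the latter not called without methionase DMSO 24 h replicate 3 (adjusted p = 0.05212) or with quantile normalization (adjusted p = 0.05073).

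EGLN3 (chr14:33924231-34462774) encodes a prolyl hydroxylase with strong induction in hypoxia. Its normalised reads were 436, 335 and 300 in vector and 219, 271 and 287 in methionase at 12 h, and 327, 415 and 354 in vector and 218, 134 and 223 in methionase at 24 h in DMSO. With Vps34-IN1 they were 132, 106 and 87.1 in vector and 82.3, 119 and 82.9 in methionase. All 6 drug libraries lay below all 12 DMSO libraries, and within the drug the vector and methionase values overlapped. Vps34-IN1 lowered EGLN3 by 70.3% in vector cells, a difference of -1.28 ± 0.13 (limma adjusted p = 9.04e-08), the largest of the 8 genes in any comparison and exceeded by 0.372% of tested genes. In methionase cells it lowered EGLN3 by 50.6% (-0.66 ± 0.13, adjusted p = 0.00322), exceeded by 0.360% of tested genes. Methionase gave -0.36 ± 0.13 at 12 h (adjusted p = 0.151, but 0.03046 with array quality weights and 0.03278 with only the groups compared), -0.73 ± 0.13 at 24 h (adjusted p = 0.000125) and -0.12 ± 0.13 in the drug, with an interval of -0.40 to 0.16. The fall from 12 h to 24 h in methionase cells was -0.34 ± 0.13 (adjusted p = 0.0484), with overlapping libraries. It was not called with no filter, quantile normalization, equal library medians, no variance trend, a replicate block or voom (adjusted p = 0.1055, 0.06042, 0.06943, 0.05834, 0.05574 and 0.05542 in that order). Nor was it called without methionase DMSO 12 h replicate 2 (-0.31, adjusted p = 0.1261) or replicate 3 (-0.28, adjusted p = 0.1648), or methionase DMSO 24 h replicate 2 (-0.17, adjusted p = 0.3353). That last library, at 134 normalised reads, also had the largest mitochondrial ribosomal share of its group, 2.01%.

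The balance of the 2 measured prolyl hydroxylases moved with the drug. The ratio of EGLN1 to EGLN3 normalised reads was 6.03 ± 0.490 (SD, n = 3) in vector and 5.50 ± 0.814 in methionase at 12 h, and 5.80 ± 0.401 in vector and 6.60 ± 2.13 in methionase at 24 h in DMSO. It was 12.8 ± 1.67 in vector and 11.0 ± 2.09 in methionase with Vps34-IN1. Apart from methionase DMSO 24 h replicate 2, at 9.06, DMSO libraries did not exceed 6.42, and drug libraries ranged from 8.68 to 14.3.

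VHL (chr3:10141008-10152220) encodes the substrate receptor of the ubiquitin ligase. It had 3571, 3420 and 3679 normalised reads in vector and 3348, 2973 and 3461 in methionase at 12 h, and 4310, 4437 and 3793 in vector and 2933, 2927 and 2719 in methionase at 24 h in DMSO. With Vps34-IN1 it had 3366, 2675 and 2728 in vector and 2610, 2632 and 2751 in methionase. Vector DMSO at 24 h stood above all other groups, and the other 3 groups at 24 h overlapped each other. At 24 h methionase lowered VHL by 31.6% in DMSO (-0.53 ± 0.08, limma adjusted p = 7.42e-06), and the drug lowered it by 30.1% in vector cells (-0.51 ± 0.08, adjusted p = 1.29e-05). With the other agent present, the values were -0.12 ± 0.08 for methionase and -0.10 ± 0.08 for the drug, with intervals of -0.28 to 0.04 and -0.26 to 0.06. The increase over time in vector cells was 0.23 ± 0.08 (adjusted p = 0.0572), and it was called without vector DMSO 24 h replicate 3, at 0.29 (adjusted p = 0.0324), and with quantile normalization, array quality weights, voom or only the groups compared. In methionase cells the change over time was -0.18 ± 0.08 (adjusted p = 0.063), and -0.25 without methionase DMSO 12 h replicate 2 (adjusted p = 0.02663). It was also called with quantile normalization, array quality weights or only the groups compared.

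VHL works with elongins B and C, CUL2, RBX1 and the neddylation proteins NEDD8 and UBE2M. The median of these 6 partner genes with methionase at 12 h was -0.08 log2. At 24 h 2 rose and 1 fell: NEDD8 had 0.37 ± 0.07 and ELOB 0.27 ± 0.10, whereas CUL2, the scaffold, had -0.34 ± 0.06 (limma adjusted p = 0.000317, 0.0287 and 0.000205). Their median was 0.18 log2, against 0.01 for all genes. The 2 higher and 1 lower of 6 stand beside 18.1% higher and 21.1% lower over all genes tested, a share too near to read a result from, and CUL2 had the sign of VHL. In the drug, methionase lowered CUL2 alone of the 6 (-0.33 ± 0.06, adjusted p = 0.000325), beside 22.2% lower over all genes tested. Vps34-IN1 in vector cells raised NEDD8 alone (0.21 ± 0.07, adjusted p = 0.0273), beside 20.2% higher. These counts, too, lie too near the shares to read a result from.

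HIF1AN (chr10:100529072-100559998) encodes the asparaginyl hydroxylase, also called factor inhibiting HIF. It had 2112, 2243 and 2322 normalised reads in vector and 1967, 1824 and 1987 in methionase at 12 h. At 24 h in DMSO it had 2268, 2220 and 2160 in vector and 1211, 1111 and 1157 in methionase. With Vps34-IN1 it had 1404, 1286 and 1293 in vector and 1111, 1159 and 1228 in methionase. The 6 vector DMSO libraries were the highest, the 3 methionase libraries at 12 h were next, and the 2 methionase groups at 24 h overlapped at the bottom. Methionase lowered HIF1AN by 47.7% at 24 h in DMSO, with -0.89 ± 0.06 (limma adjusted p = 1.42e-10), the largest of the 8 in that comparison and exceeded by 1.45% of tested genes. At 12 h the value was -0.20 ± 0.06 (adjusted p = 0.0754), with no overlap between groups, and it was called with array quality weights (adjusted p = 0.006339) and with only the groups compared (adjusted p = 0.02595). Vps34-IN1 lowered it by 40.1% in vector cells (-0.70 ± 0.06, adjusted p = 3e-09), and in methionase cells the difference was 0.01 ± 0.06 with an interval of -0.12 to 0.13. In the drug the methionase difference was -0.18 ± 0.06 (adjusted p = 0.0222). That call was lost without vector Vps34-IN1 replicate 1 (-0.14, adjusted p = 0.1121) and without methionase Vps34-IN1 replicate 1 (-0.14, adjusted p = 0.09557), with equal library medians (adjusted p = 0.06004) and with only the groups compared (adjusted p = 0.09819), and quantile normalization gave -0.05 (adjusted p = 0.5278).

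Set against its substrate's transcript, HIF1AN changed place between groups. The ratio of HIF1AN to HIF1A normalised reads was 1.73 ± 0.034 (SD, n = 3) in vector at 24 h, 1.23 ± 0.0543 in methionase at 24 h, 0.935 ± 0.0286 in vector with the drug and 1.58 ± 0.17 in methionase with the drug. The order of vector and methionase was thus opposite in DMSO and in Vps34-IN1, with no overlap in either. At 12 h the ratio was 1.45 ± 0.0581 in vector and 1.33 ± 0.0461 in methionase.

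BHLHE40 (chr3:4979116-4985323) encodes a basic helix-loop-helix repressor that is induced by HIF and acts on clock genes. It had 2209, 1680 and 1474 normalised reads in vector and 1014, 934 and 981 in methionase at 12 h, and 1940, 2318 and 1915 in vector and 1320, 1294 and 1312 in methionase at 24 h in DMSO. With Vps34-IN1 it had 1681, 2093 and 2094 in vector and 1082, 1568 and 1691 in methionase. In DMSO methionase and vector did not overlap, whereas in the drug they did, and methionase Vps34-IN1 replicate 1 lay apart at 1082. The differences with methionase were -0.80 ± 0.13 at 12 h (limma adjusted p = 0.00212), -0.62 ± 0.13 at 24 h (adjusted p = 0.000413) and -0.43 ± 0.13 in the drug (adjusted p = 0.00879). Without that replicate the last value was -0.25 (adjusted p = 0.1015). Quantile normalization gave -0.30, which was not called either (adjusted p = 0.06834). Among the 8 genes BHLHE40 alone had 24 h levels above its 12 h levels in methionase cells that were called (0.39 ± 0.13, adjusted p = 0.0153), and without methionase DMSO 12 h replicate 2 this was 0.36 (adjusted p = 0.05385). With Vps34-IN1 it differed by -0.07 ± 0.13 in vector cells and 0.11 ± 0.13 in methionase cells, with intervals of -0.33 to 0.19 and -0.15 to 0.37. Its antisense neighbour BHLHE40-AS1 had between 4.8 and 26.9 normalised reads.

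Clock genes, which BHLHE40 and its paralogue BHLHE41 are known to repress or pair against, were called in both directions. Of 13 tested, with BHLHE41 counted among them, 1 was lower with methionase at 12 h, BHLHE41 itself at -0.46 ± 0.09 (limma adjusted p = 0.0127). The shares over all genes tested were 1.49% lower and 0.681% higher. At 24 h 4 fell and 3 rose, among them BHLHE41 at -0.58 ± 0.09, CRY1 at -0.23 ± 0.07 and NR1D1 at 0.75 ± 0.08, beside 21.1% lower and 18.1% higher over all genes tested. With Vps34-IN1 in vector cells 5 rose and 2 fell, with NR1D2 at 0.86 ± 0.13, PER1 at 0.69 ± 0.07 and DBP at -0.81 ± 0.09, beside 20.2% higher and 19.9% lower. These counts rest on 13 genes, no test was run on them, and they are given as a description. Medians stayed between -0.15 and 0.07 log2 in all 9 comparisons.

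The difference between differences was fitted as an interaction. The methionase effect in Vps34-IN1 minus that in DMSO was called for 6 of 8 genes, where 21.8% of all genes tested were called in either direction. For HIF1A it was -0.46 ± 0.08 (limma adjusted p = 0.00027) and for ARNT -0.31 ± 0.08 (adjusted p = 0.00405), so that both methionase differences were more negative in the drug. For the hydroxylases and VHL the sign was opposite: HIF1AN had 0.71 ± 0.08 (adjusted p = 2.6e-06), EGLN3 0.62 ± 0.19 (adjusted p = 0.0219), VHL 0.41 ± 0.11 (adjusted p = 0.00839) and EGLN1 0.37 ± 0.10 (adjusted p = 0.00863). Each of these 4 was already lowered by the drug in vector cells. That difference enters the interaction with its sign turned, so the fall and the positive value are not independent results. The same holds for ARNT, which the drug raised in vector cells (0.33 ± 0.05), beside 0.02 ± 0.05 in methionase cells. EPAS1 (0.17 ± 0.11) and BHLHE40 (0.19 ± 0.18) were not called, with intervals of -0.06 to 0.41 and -0.18 to 0.55. The EGLN3 call was the least stable of the 6: it was lost with no filter on low values (0.62, adjusted p = 0.05615), quantile normalization (0.48, adjusted p = 0.0927) and voom (0.75, adjusted p = 0.08204). Its value was between 0.45 and 0.54, and not called, without any of vector DMSO 24 h replicate 2, methionase DMSO 24 h replicate 2, vector Vps34-IN1 replicate 3 or methionase Vps34-IN1 replicate 2.

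**Figure D3:**
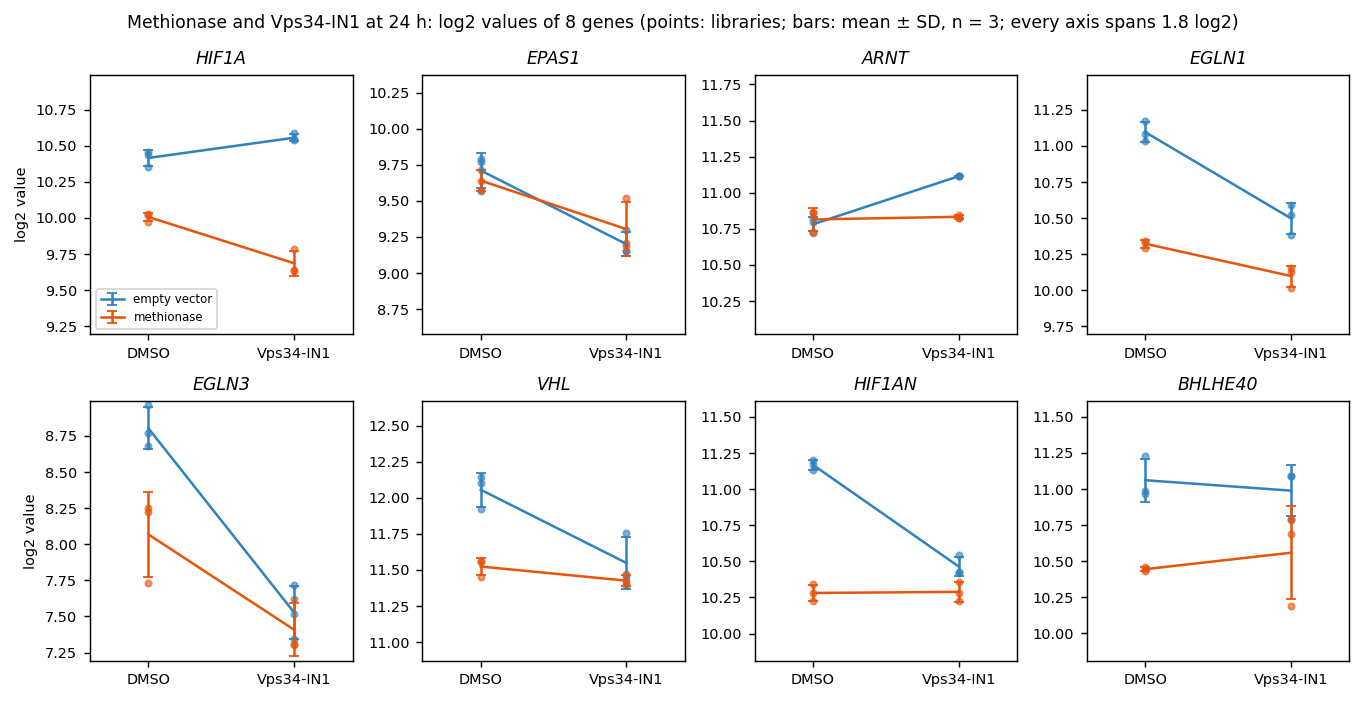
Log2 values (vertical axes, each spanning 1.8 log2) at 24 h in DMSO and Vps34-IN1 for the empty vector (blue) and methionase (orange). Points are libraries and bars the mean ± SD of 3. The lines draw apart for HIF1A and ARNT with the drug and come together for HIF1AN, VHL, EGLN3 and EGLN1.

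The change of the methionase effect from 12 h to 24 h was called for 3 of 8 genes, against 11.7% of all genes tested (2071 calls, but 1276 without methionase DMSO 12 h replicate 1 and 1325 without vector DMSO 24 h replicate 1). It was -0.69 ± 0.08 for HIF1AN (limma adjusted p = 1.36e-05), -0.41 ± 0.11 for VHL (adjusted p = 0.0163) and -0.33 ± 0.08 for HIF1A (adjusted p = 0.0104). The VHL value was -0.36, and not called, without vector DMSO 24 h replicate 2 (adjusted p = 0.05283). It combines a rise over time in vector cells (0.23 ± 0.08, limma adjusted p = 0.0572) with a fall in methionase cells (-0.18 ± 0.08, adjusted p = 0.063). Neither of these was called in the main fit. EGLN1 and BHLHE40, the genes lowered at 12 h, had -0.21 ± 0.10 (adjusted p = 0.195) and 0.19 ± 0.18 (adjusted p = 0.56), with intervals of -0.41 to 0.00 and -0.18 to 0.55. For EGLN3 the value was -0.37 ± 0.19 (adjusted p = 0.223).

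A list of 35 textbook HIF target genes, none of them among the 9, was read beside these values, and 31 passed the filter on low values. With methionase 10 were lower at 12 h and 22 at 24 h, beside 1.49% and 21.1% lower over all genes tested. The medians of the list were -0.30 and -0.32 log2 against 0.00 and 0.01 for all genes. By limma 0 were higher at either time, also at an unadjusted p below 0.05 and by limma voom, while quantile normalization called 1 higher at 24 h. The count at 12 h was 4 without methionase DMSO 12 h replicate 2. SLC2A1, the main glucose transporter, had -0.90 ± 0.09 at 12 h and -1.14 ± 0.09 at 24 h, and PFKFB4, a glycolysis regulator, -0.75 ± 0.10 and -1.18 ± 0.10. VEGFA, the angiogenic growth factor, had -0.08 ± 0.08 at 12 h (limma adjusted p = 0.626) and -0.36 ± 0.08 at 24 h (adjusted p = 0.000778). In the drug, 13 were lower and 2 higher with methionase, beside 22.2% lower and 17.3% higher over all genes tested. Among them were TFRC, the transferrin receptor, at -0.78 ± 0.07 and HMOX1, haem oxygenase, at 0.46 ± 0.09. Vps34-IN1 in vector cells lowered 16 and raised 2, beside 19.9% lower and 20.2% higher, with SLC2A3 at -1.40 ± 0.15 and MXI1 at 0.28 ± 0.08. In methionase cells the drug lowered 2 of 31, ADM at -0.45 ± 0.10 and INSIG2 at -0.29 ± 0.09. That count stands beside 4.98% lower over all genes tested, a share too near to read a result from. Only 1 lower target was called there by limma voom, and none when only the groups compared were fitted. From 12 h to 24 h 6 were higher and 0 lower in vector cells, beside 4.61% higher and 6.88% lower over all genes tested. Voom and an unadjusted p below 0.05 also gave 0 lower there. In methionase cells 8 of 31 were higher and 3 lower, beside 18.4% and 21.3%. Most targets were not called in either interval, and these counts are given as a description. The medians were 0.12 and 0.07 log2 against 0.00 for all genes. VEGFA had 0.48 ± 0.08 in vector cells (adjusted p = 0.000365) and 0.21 ± 0.08 in methionase cells (adjusted p = 0.0391). SLC2A1 was called in neither, at 0.05 ± 0.09 (adjusted p = 0.763) and -0.19 ± 0.09 (adjusted p = 0.0924). In methionase cells ADM (0.47 ± 0.10) and NDRG1 (0.56 ± 0.12) were higher and KDM3A (-0.30 ± 0.06) lower. The 6 became 12, 3 and 3 without vector DMSO 12 h replicates 1, 2 and 3. The 8 became 4 and 3 without methionase DMSO 12 h replicates 1 and 2, 5 and 4 without methionase DMSO 24 h replicates 1 and 2, and 3 with no filter. In the interaction of methionase with the drug 9 were higher and 1 lower (0 lower with no filter or quantile normalization, among others), with a median of 0.11. Over all genes tested 21.8% were called in either direction. A fall with the drug in vector cells enters this interaction with its sign turned, as for SLC2A3 (-1.40 and 1.41). The counts of these comparisons are therefore not independent results. In the interaction of methionase with time 1 was higher and 1 lower, beside 11.7% called in either direction, and no result is read from that count. The background shares given above for each comparison apply here too, and the list was chosen with results of these libraries known.

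**Figure D4:**
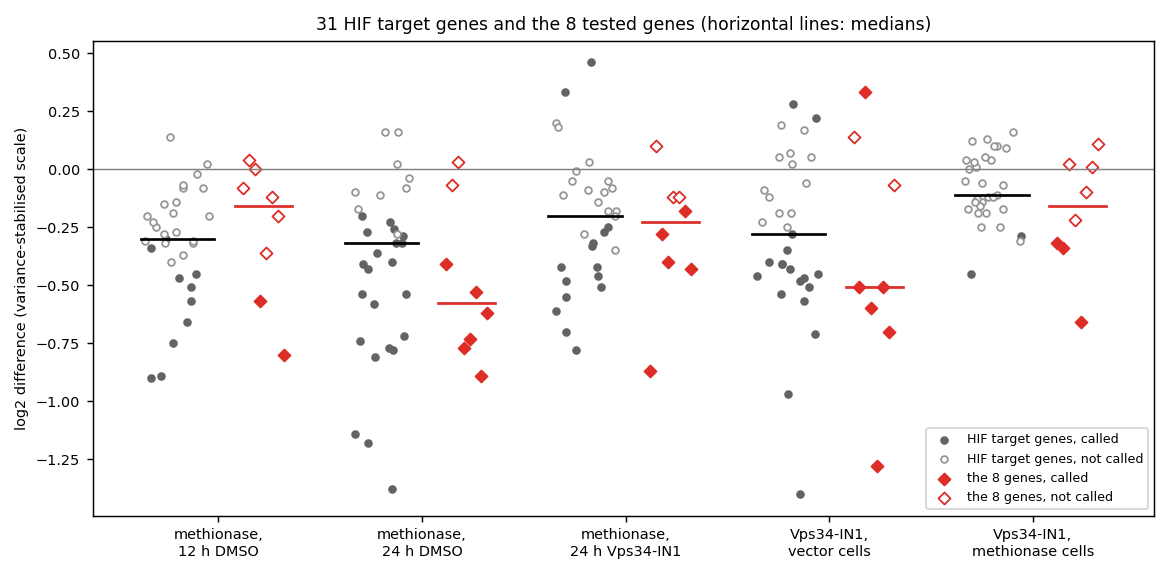
Log2 differences (vertical axis) of 31 HIF target genes (grey circles) and the 8 tested genes (red diamonds) in 5 comparisons (horizontal axis). Filled symbols were called, open ones were not, and horizontal lines are medians, which for the targets lay at -0.30, -0.32, -0.20, -0.28 and -0.11 from left to right.

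Of 16 genes for HIF coactivators and for the stability and turnover of the alpha subunit, the median with methionase at 12 h was -0.07 log2. At 24 h 5 fell and 2 rose, including LIMD1, a scaffold that bridges EGLN proteins and VHL, at -0.25 ± 0.07, the acetyltransferase gene EP300 at -0.30 ± 0.09 and the chaperone gene HSP90AA1 at 0.38 ± 0.10. Over all genes the shares were 21.1% lower and 18.1% higher. In the drug 8 fell and 1 rose, beside 22.2% and 17.3%, with EP300 at -0.46 ± 0.09 and the SUMO protease gene SENP1 at -0.45 ± 0.06. With Vps34-IN1 in vector cells 5 rose and 3 fell, beside 20.2% and 19.9%, with SENP1 at 0.39 ± 0.06 and CITED4, which competes for the coactivators, at -0.59 ± 0.11. The medians, between -0.14 and 0.08 log2 in all 9 comparisons, were nearer 0 than those of the 8 genes in each comparison of methionase with vector and in that of the drug in vector cells.

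Over the 18 libraries the oxygen sensors varied together more than the HIF subunits did. Pearson correlations of log2 values, given as descriptions over libraries that share 6 groups, were 0.886 for EGLN1 with HIF1AN, 0.873 for VHL with HIF1AN, 0.869 for EGLN1 with VHL and 0.851 for EGLN1 with EGLN3. HIF1A and EPAS1 had 0.396, and EPAS1 and ARNT -0.536. Between subunits and sensors, EPAS1 and EGLN3 had 0.821, HIF1A and HIF1AN 0.734, and HIF1A and EGLN1 0.71. By Pearson ARNT was negative with every sensor, from -0.424 to -0.0849, but this did not hold by rank. Its Spearman correlations were 0.162 with EGLN1, 0.0918 with HIF1AN, -0.098 with VHL and -0.191 with EGLN3, and -0.164 with EPAS1. BHLHE40 reached at most 0.510 with any other of the 8 genes, which was EGLN1. Among all genes tested, those most like each gene were GIGYF2 (0.984) and SMURF2 (0.979) for HIF1A, VPS4B (0.984) and MFAP3 (0.981) for HIF1AN, NANOS1 (0.973) and ORAI2 (0.971) for EGLN3, and ZNF395 (0.964) and INSIG2 (0.959) for EGLN1. For ARNT they were FERMT2 (0.950) and BEND3P3 (0.942), for VHL ASPH (0.949) and CCDC71L (0.934), and for EPAS1 CCND1 (0.946) and C14orf132 (0.942). For BHLHE40, PDK1 had 0.856. INSIG2 and PDK1 also stood in the list of HIF targets.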

How the data were processed

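The libraries came from a dUTP strand-marking polyadenylated RNA kit, per the labels' protocols. Expression was deposited by the authors in 1 table, whose values are variance-stabilised gene counts on a log2 scale. The tools named in the submitters' processing notes are featureCounts, limma, DESeq2 and STAR 2.7.10b, with the build hg38. Neither annotation nor strand setting is given in the sources used here, and reads of overlapping genes may not have been told apart. Undoing the transformation gave whole reads for 100% of values (within 0.01 of a read). Of the 37097 lines 1 named no gene and was left out (at most 0.00216% of a library's reads). Genes with a mean log2 value at least 0.5 above the lowest, 5.45, were tested (17755). The fit, in R 4.3.3 with limma 3.58.1, had a mean for each group over all 18 libraries and a variance trend. A call is a Benjamini-Hochberg adjusted p below 0.05 over all genes tested in a comparison, and no correction was made over the 9 comparisons. Intervals are 95% from the moderated fit. Python 3.11.15 was used for the other steps. The procedure was checked on simulated data. The members and all gene lists were chosen with earlier results of these data known. Every member is named, and from other lists up to 2 called genes of lowest adjusted p in the direction of most calls and 1 in the other, besides SLC2A1 and VEGFA. For each gene the 2 most correlated others are named, apart from 1 that is not reported here. Libraries carried a single batch label, and no pair of replicates was a copy of another (chi-square per gene at least 2.52).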

Additional observations from a re-analysis of the deposited data

Results flagged for a closer look

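In 9 cases the methionase difference of a gene differed between settings by the limma test of the interaction itself (Benjamini-Hochberg adjusted over all genes tested). Between Vps34-IN1 and DMSO at 24 h the change was -0.46 for HIF1A and -0.31 for ARNT, and 0.71 for HIF1AN, 0.62 for EGLN3, 0.41 for VHL and 0.37 for EGLN1, where the gap between methionase and vector was smaller in the drug. ARNT was lower with methionase in the drug (-0.28) but not in DMSO (0.03). With the drug ARNT differed by 0.33 in vector cells and by 0.02 in methionase cells. The EGLN3 case was not called with no filter, quantile normalization or voom (adjusted p = 0.05615, 0.0927 and 0.08204), nor without any of 4 single libraries. Between 24 h and 12 h in DMSO it was -0.69 for HIF1AN, -0.41 for VHL and -0.33 for HIF1A. The mitochondrial ribosomal and histone shares also differed between these groups, and their part was not tested.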

How the results depend on the processing

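Replicate numbers did not pair the libraries: same-numbered libraries correlated between -0.308 and 0.352 in their deviations from group means, the best partner had the same number in 33 of 90 cases, and a replicate block moved 1 member count, for 24 h against 12 h in methionase cells, from 5 to 4 (EGLN3, -0.34, adjusted p = 0.05574). Apart from that block and single libraries left out, member counts moved as follows: methionase at 12 h from 2 to 4 with array quality weights or only the groups compared; methionase in the drug from 5 to 3 with quantile normalization and 4 with equal medians or only the groups compared; the drug in vector cells from 6 to 7 with a stricter filter, equal medians, weights, voom or only the groups compared; the drug in methionase cells from 3 to 4 with a stricter filter and 1 with only the groups compared; time in vector cells from 1 to 2 with quantile normalization, weights, voom or only the groups compared; time in methionase cells from 5 to 6 with weights or only the groups compared and 4 with no filter, quantile normalization, equal medians, no trend or voom; and the drug interaction from 6 to 5 with no filter, quantile normalization or voom. Leaving out 1 library, counts ranged from 0 (without vector DMSO 12 h replicate 2) to 2 (without vector DMSO 24 h replicate 3) for time in vector cells, 3 to 5 for methionase in the drug, 2 to 4 for the drug in methionase cells, 5 to 6 for the drug interaction, 2 to 3 for the time interaction and 4 to 5 for time in methionase cells. Calls over all genes moved by over 1.5 times from 385 to 178 (no filter), 185 (quantile), 247 (no trend), 2135 (weights) and 1561 (groups compared) at 12 h, from 1408 to 625 (weights) and 296 (groups compared) for the drug in methionase cells, from 2039 to 1290 (no filter), 5186 (weights) and 3507 (groups compared) for time in vector cells, and from 2071 to 3617 (weights) for the time interaction, besides the single libraries given in the report. Leave-one-out member counts stayed at 2 for methionase at 12 h, 6 at 24 h and 6 for the drug in vector cells.

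Reversed signs were all in differences that were not called in the alternative. With quantile normalization they were ARNT 0.07 at 12 h, EPAS1 0.00 with methionase at 24 h, VEGFA 0.11 with methionase in the drug, EGLN1 0.05 and HIF1AN 0.06 over time in vector cells, and RACK1 -0.01 over time in methionase cells, a call of 0.40 otherwise. With equal medians VEGFA was 0.02. With array weights BHLHE40 was 0.00 with the drug in vector cells, and EPAS1 0.01 and HIF1AN 0.00 over time in vector cells. With voom ARNT at 12 h and HIF1AN over time in vector cells were 0.00. Leaving out single libraries gave, over time in vector cells, EGLN1 -0.09 to 0.07, HIF1AN -0.04 to 0.02, EGLN3 -0.06 to 0.16, EPAS1 -0.08 to 0.03 and SLC2A1 -0.02 to 0.19. It gave ARNT -0.02 to 0.01 at 12 h, EPAS1 0.00 to 0.16 and VEGFA -0.10 to 0.05 with methionase in the drug, BHLHE40 -0.12 to 0.03 with the drug in vector cells, and HIF1AN -0.03 to 0.04, ARNT -0.03 to 0.04 and BHLHE40 0.00 to 0.30 with the drug in methionase cells. The cause was not tested. Counting-based tests planned on recovered reads with edgeR and DESeq2 were not run because the deposited unit is a log2 value, and limma voom with TMM factors stood in for them. Quantile normalization and equal medians moved the median of all genes by at most 0.056 log2. Depth was alike across libraries, and only EGLN2 was too low to test.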
